A study of Mus musculus with 75 samples.

Results

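A set of 100 protein-coding genes was defined as those lowered most steadily in the lungs of mice given bleomycin (BLEO), out of 11831 protein-coding genes that were eligible and 55536 genes in the count table. Each gene's level was written as log2(CPM + 1), where CPM is the gene's counts per 1000000 of the mouse's total counts. A gene was eligible when its mean over the control mice was at least 5 CPM. For each eligible gene the day mean minus the control mean was taken on 6 days, the least negative of these 6 differences was kept, and the 100 genes with the lowest kept value formed the set. The differences from control therefore chose the genes and are given as a description, with no test.

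BLEO, an antitumor agent that breaks DNA and scars the lung when instilled into the airways, was given once into the trachea of male C57BL/6JRj mice aged 12 to 14 weeks. The right lung's inferior lobe was taken for RNA sequencing in 75 mice, of which 10 were controls (CTRL). The 65 BLEO-IPF mice were taken on day 7 (D7, n = 10), day 14 (D14, n = 12), day 21 (D21, n = 12), day 28 (D28, n = 12), day 35 (D35, n = 12) or day 42 (D42, n = 7). Sample titles call the controls saline mice while the treatment protocol calls them untreated, so it stays unsettled what they received. Mice entered the BLEO groups only with a weight loss of 5% to 17% on day 6, so the groups stand for mice of middling early illness. Each library came from 1 mouse, and in such bulk tissue fewer cells of a type and less RNA per cell cannot be told apart.

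The gas-exchange surface of the lung is built from alveolar epithelium, capillaries and the fibroblasts of the alveolar wall, while the small airways carry secretory club cells and ciliated cells. Club cells and alveolar fibroblasts hold many enzymes that oxidise or methylate inhaled and circulating compounds. After bleomycin the injured alveoli are filled by inflammatory cells and by matrix laid down by activated fibroblasts, and in mice this scar recedes in part with time.

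The libraries held 9240290 to 14665200 counts, with a median of 10677200. The lung labels were borne out by type 1 cell markers, which summed to 10024 to 11793 CPM in CTRL, and by type 2 cell markers, which summed to 24700 to 30122 CPM. A pair of libraries stood apart. D28 replicate 10 held 195 CPM of Adipoq, the hormone of fat cells, 173 CPM of Plin1, the coat protein of their lipid droplets, 582 CPM of skeletal actin Acta1 and 769 CPM of heart myosin Myh6, against up to 419 CPM of Myh6 in the other D28 mice. D7 replicate 8 held 66.7 CPM of Adipoq and 42.0 CPM of Plin1, while Acta1 was at 0.419 CPM and Myh6 at 0. In the remaining mice of these days Adipoq reached at most 3.41 CPM on D28 and 1.42 CPM on D7. Ucp1, which defines brown fat, was at 0.899 CPM in D28 replicate 10 and at 0 in D7 replicate 8. The genes kept in the set and the counts called between days are given with and without these libraries. All other values include both unless stated, among them the medians by day and by role and the counts of overlap with CTRL.

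All 100 genes lay below CTRL on each of the 6 days, as the rule demanded. The median difference over the 100 genes was -0.94 on D7, -1.60 on D14, -1.40 on D21, -1.13 on D28, -0.96 on D35 and -0.98 on D42, on the log2(CPM + 1) scale. Over all eligible genes the medians lay between -0.03 and 0.01. D14 was the lowest day for 78 genes of the set, against 33.7% of all eligible genes, and D21 for 13, against 10.4%. The lowest day was D42 for 5 genes, against 18.9% of eligible genes, namely Scube2, Hlf, Ciart, Abca6 and Pcdhac2. The kept value ran from -1.72 for Krt79 to -0.63 for Scgb1a1, with a median of -0.79. At the border, the last genes inside were Abi3bp at -0.6323 and Scgb1a1 at -0.6322, and the first outside were Klf9 at -0.6319 and Sox11 at -0.6313, so the border divides genes of nearly equal value. Levels in CTRL ran from 5.03 to 22018 CPM with a median of 29.7 CPM, against 37.4 CPM over all eligible genes.

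**Figure D1:**
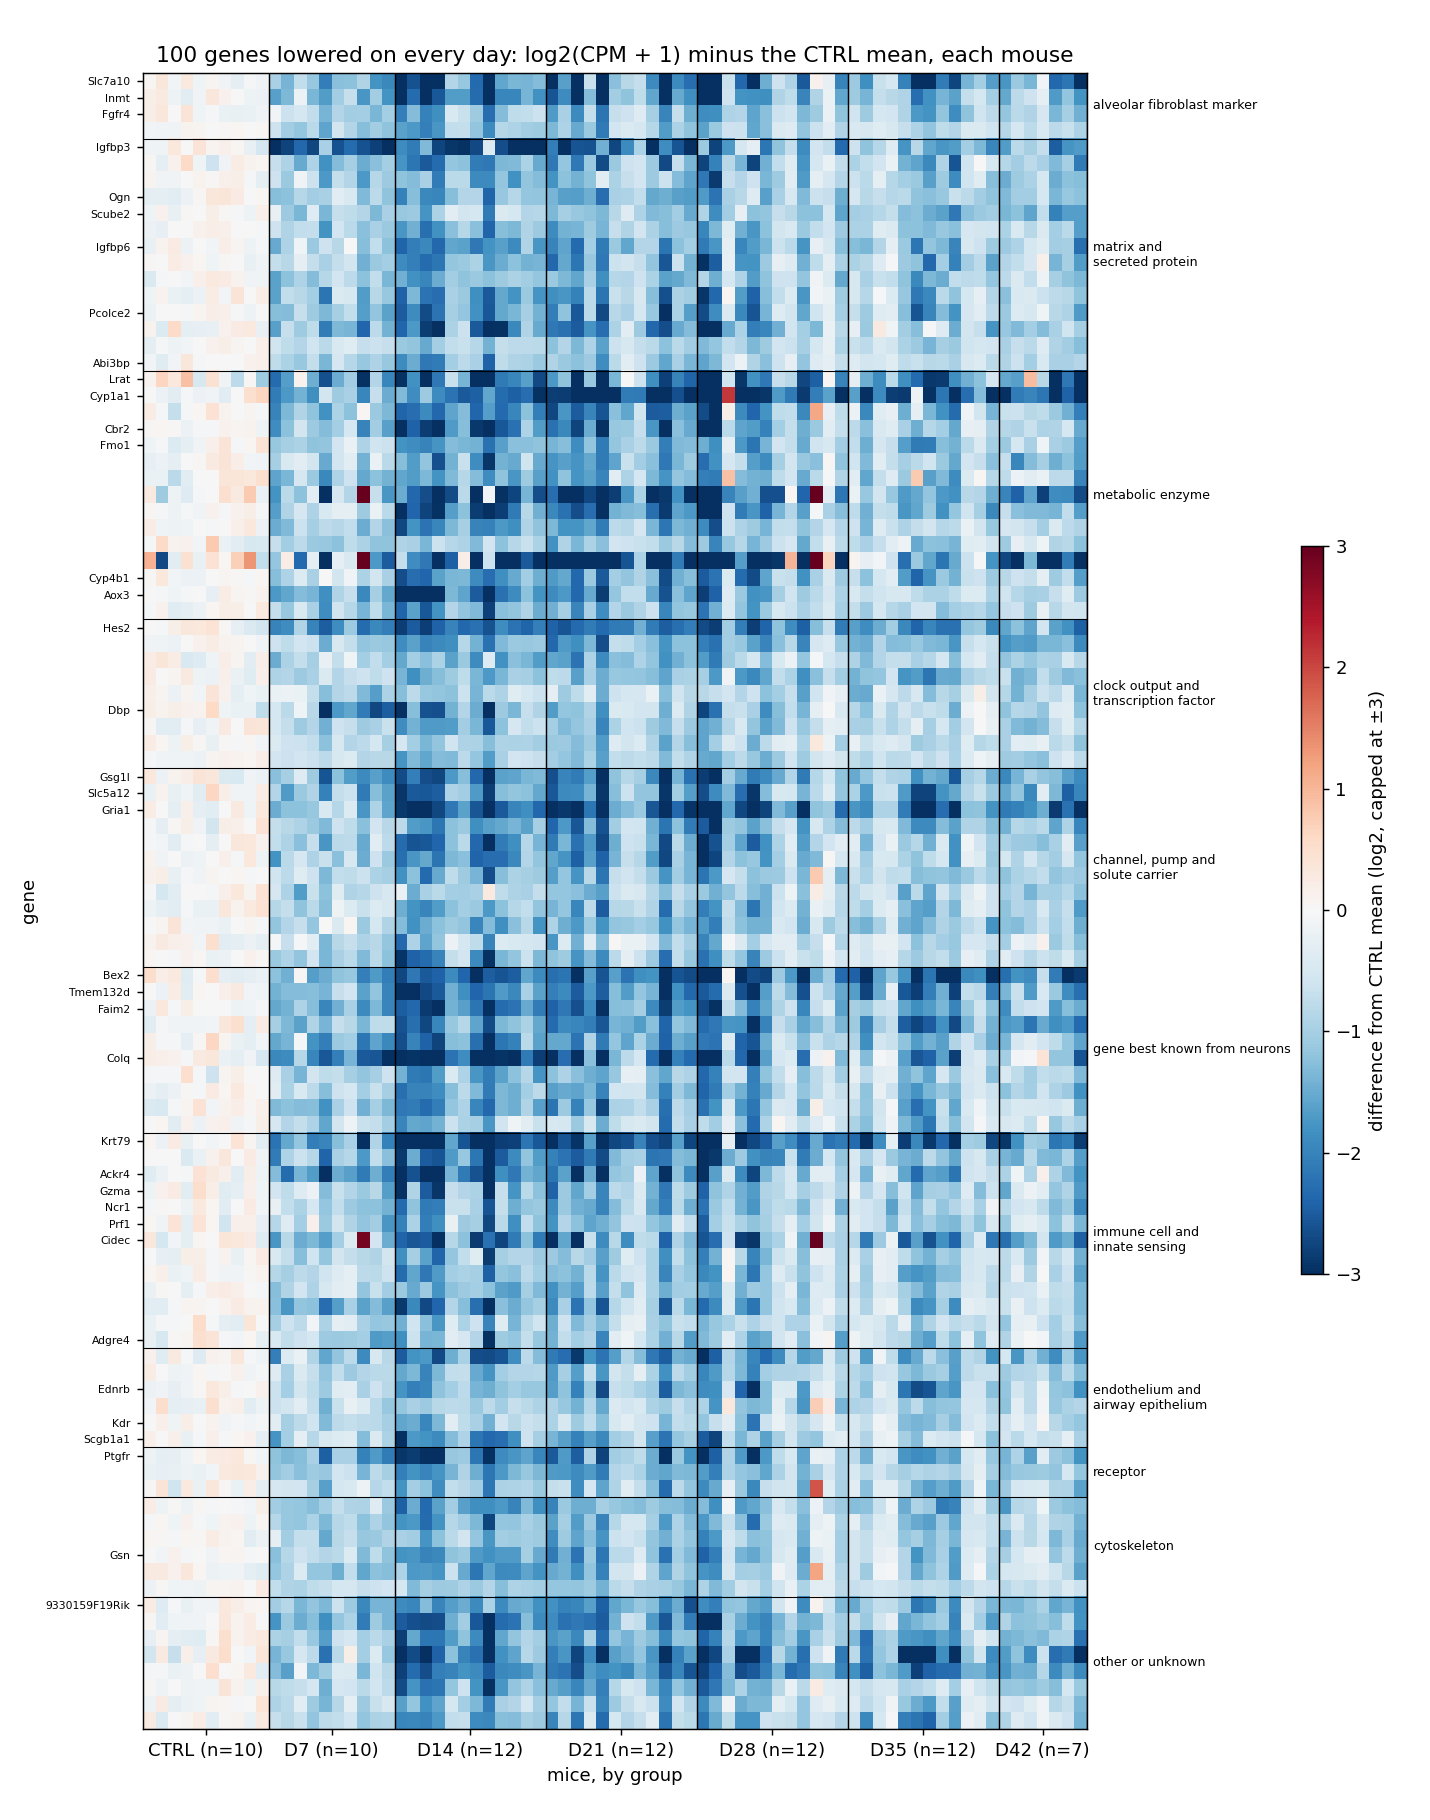
Each row is 1 of the 100 genes, grouped by role and labelled where the gene was chosen for description by rule, and each column is 1 of 75 mice, ordered by group. Color shows log2(CPM + 1) minus the mean of the 10 CTRL mice, capped at 3 either way, and the median over the genes is deepest on D14 at -1.60.

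For 18 genes every BLEO-IPF mouse lay below every CTRL mouse, which was so for 38 of the 11831 eligible genes (0.321%). Among them were Hes2, Faim2, Gria1, Pcdhac2, Vpreb3, Ogn, Scube2, Hlf, Cbr2, Synm, Epha1, Gsn, Gpr155, Ces1e, Syde2, Aox3 and Itga8. By day, no overlap with CTRL was seen for 62 genes on D7 (4.17% of eligible genes), 88 on D14 (7.82%), 79 on D21 (5.43%), 37 on D28 (1.35%), 48 on D35 (1.45%) and 61 on D42 (3.73%). Since the same differences chose the genes, these counts describe the set and support nothing further.

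The highest levels per length of exon in CTRL belonged to products of the airway epithelium. Scgb1a1, the main secreted protein of club cells, stood at 46257 CPM per kb of exon, and Cbr2, a carbonyl reductase of the same cells, at 3077 CPM per kb. Scgb1a1 had 17896, 22354 and 24274 CPM as lowest, median and highest CTRL mouse, 1861, 6220 and 14126 CPM on D14, and 11187, 13856 and 17896 CPM on D42. The D14 mice did not overlap CTRL, and the highest D42 mouse lay just below the lowest CTRL mouse. Cbr2 had 3603, 4191 and 4457 CPM in CTRL, 320, 727 and 2137 CPM on D14, and 1426, 2184 and 2812 CPM on D42, with no overlap on any day. The other high genes per kb were Gsn, which severs actin filaments, at 1482 CPM per kb, the methyltransferase Inmt at 1217, the P450 Cyp4b1 at 312, the matrix proteoglycan Ogn at 205, the growth factor binder Igfbp6 at 178, the monooxygenase Fmo1 at 91.6, the clock output factor Dbp at 80.8 and the procollagen enhancer Pcolce2 at 79.8.

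Of the other 8 genes on a club cell list, 1 fell against CTRL on all 6 days and 0 rose on all 6 (edgeR's quasi-likelihood test, adjusted p under 0.05), beside 5.31% of all 16221 genes tested that fell on all 6 days and 8.33% that rose. On the single days D7 to D42, 20.9%, 29.9%, 25.8%, 19.2%, 13.1% and 11% of all genes fell and 24.9%, 32.4%, 28.3%, 24.1%, 16.9% and 13.7% rose. Rises on all 6 days stayed at 0 of 8 with an unadjusted p under 0.05 and with DESeq2. This and the other lists were chosen with earlier results of these data known, so counts set beside all genes are descriptions. The gene that fell was Aldh1a1, a retinal-oxidising dehydrogenase, from 1697 CPM in CTRL, with log2 fold changes of -0.56 on D7, -1.28 on D14 and -0.84 on D42. Cyp2f2, a P450 typical of club cells at 2532 CPM in CTRL, fell on D7 to D28, by 1.91 on the log2 scale on D14, and did not pass on D35 (-0.43) or D42 (-0.57). Hp, the hemoglobin binder haptoglobin, rose on D7 only among the 6 days (0.57) and was at 0.07 on D14. Of 9 ciliated cell genes, 0 fell and 0 rose on all 6 days (edgeR). With an unadjusted p under 0.05, 1 fell and 0 rose, and DESeq2 gave 0 for each. The tubulin-binding gene Tppp3 changed by -1.74 on D14 and by -0.40 on D42, the latter not past the test. Foxj1, the master factor of cilia, fell on 4 days, at -0.54 on D14 and -0.51 on D42, and was at 0.09 on D7, not past the test. The dynein Dnah5 fell on 5 days, at -1.24 on D14 and -0.83 on D42, and was at -0.18 on D35, not past the test.

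A group of 4 genes came from the alveolar fibroblast list: Inmt, the amino acid exchanger Slc7a10, the receptor Fgfr4 and the integrin Itga8. Inmt, which methylates indoleamines, had 1541, 1858 and 2443 CPM as lowest, median and highest CTRL mouse, 557, 749 and 1693 CPM on D7, 182, 442 and 735 CPM on D14, 195, 607 and 1677 CPM on D28, and 554.5, 851 and 1575 CPM on D42. A single mouse on each of D7, D28 and D42 reached the CTRL range. Slc7a10 had 21.6, 25.1 and 33.7 CPM in CTRL and 0.095, 6.39 and 13.9 CPM on D14, where the groups did not overlap. Fgfr4 had similar medians over the later days, of 17.1 CPM on D14, 17.6 on D28 and 19.6 on D42 against 38.2 CPM in CTRL. Itga8, named after its values were seen, had 426, 463 and 496 CPM in CTRL and stayed at 239, 264 and 336 CPM on D42. The span of Slc7a10 overlaps genes on the opposite strand with 134% of its counts, and the strand setting of the counting is not known.

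The alveolar fibroblast list was chosen with earlier results of these data known, so its counts are a description. Of its other 8 genes, 4 fell on all 6 days (edgeR), against the 5.31% of all genes. They were Limch1, an actin-associated protein at 1139 CPM in CTRL and -0.55 on D7 (log2 fold change), Ces1d, a carboxylesterase at 781 CPM and -1.14 on D14, Tcf21, the lineage factor of these cells, at -0.98 on D14, and the growth factor Wnt2 at -1.01 on D35. Npnt, a matrix ligand of the Itga8 integrin, fell on 4 days and was at -0.29 on D42. Pdgfra, the receptor shared by most lung fibroblasts, fell on 0 of 6 days and rose on D14 (0.38), so the list did not move as a block. In the same lungs 5 of 9 fibrotic matrix genes rose on all 6 days, beside 8.33% of all genes. The collagens Col1a2 and Col3a1 stood at 2.30 and 2.49 on D14, and Postn, which marks activated fibroblasts, at 0.22. Of 10 adventitial fibroblast genes, 2 rose on all 6 days and 0 fell (edgeR, and also 0 with an unadjusted p and with DESeq2).

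The promoter of Inmt is shown because the gene is the most abundant fibroblast marker of the set per kb and holds 2 matches to the letters TATAAA. The sequence holds the 250 bases before the start at chr6:55174991-55175240 on the minus strand of GRCm38.p6, taken from RefSeq, with TATAAA in capitals at positions -80 and -69 from the start. TATAAA on either strand stood in 6.94% of the 9365 eligible promoters found in that table. The matches describe letters and are not proof of function. In the GENCODE annotation the 5′ end of Inmt lies upstream of this start, at base 55175043.
Inmt: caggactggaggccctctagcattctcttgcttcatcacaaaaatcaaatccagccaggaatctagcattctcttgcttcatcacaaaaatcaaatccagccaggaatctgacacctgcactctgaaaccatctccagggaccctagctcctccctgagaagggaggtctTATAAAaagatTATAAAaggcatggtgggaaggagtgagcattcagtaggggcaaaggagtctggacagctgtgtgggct

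The matrix and secreted group held 14 genes, with medians of -0.95 on D7, -1.52 on D14 and -0.95 on D42 (difference from CTRL, log2). Igfbp3, which carries insulin-like growth factors, was the gene lowered most on D7 in the whole set, at -2.57. Igfbp3 had 70.96, 106 and 135 CPM in CTRL, 8.65, 15.4 and 52.5 CPM on D7, 8.42, 14.7 and 77.2 CPM on D14, 14.3, 45.8 and 85.5 CPM on D28, and 17.8, 31.7 and 63 CPM on D42. The mice of D7 to D21 lay below CTRL apart from 1 mouse on D14. Scube2, a secreted protein that releases hedgehog ligands, had 53.4, 62.8 and 70.1 CPM in CTRL, 13.4, 33.4 and 49.4 CPM on D14, and 14.5, 19.9 and 36.6 CPM on D42. Its D42 mice were the lowest group, and no BLEO-IPF mouse reached CTRL. Ogn had 420, 525 and 668 CPM in CTRL and 97.5, 221 and 289 CPM on D14. Abi3bp had 113, 146 and 185 CPM in CTRL and 26.3, 69.6 and 86.8 CPM on D14.

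The enzymes made up 15 genes and were lowered by a median of 1.01 on D7 and 1.96 on D14, as differences from CTRL of -1.01 and -1.96 on the log2 scale. Lrat, which esterifies retinol for storage, had 34.02, 75.3 and 133 CPM in CTRL, 6.23, 15.6 and 44.8 CPM on D14, and 6.37, 22.5 and 137 CPM on D42. It was spread widely in every group, and 15 of 65 BLEO-IPF mice reached the CTRL range, D42 replicate 3 the highest of these. Cyp1a1, the P450 induced through the aryl hydrocarbon receptor, had 12.2, 14.7 and 24.8 CPM in CTRL, 0.301, 1.02 and 2.84 CPM on D21, and 0.475, 2.06 and 3.19 CPM on D42. In D28 it ran from 0.190 to 70.4 CPM around a median of 1.21 CPM, and the value of 70.4 came from replicate 3 alone. Aox3, an aldehyde oxidase, had 203, 241 and 279 CPM in CTRL, 14.0, 45.8 and 101.03 CPM on D14, and 111, 132 and 185 CPM on D42. The D42 mice of Aox3 stayed below CTRL. Cyp4b1 had 618, 703 and 870 CPM in CTRL and 111, 213 and 342 CPM on D14. Fmo1 had 430, 551 and 759 CPM in CTRL and 119, 197 and 244 CPM on D14.

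Of the other 12 genes of a list of enzymes acting on foreign compounds, 4 fell on all 6 days (edgeR), and 0 rose on all 6, with 0 also at an unadjusted p and by DESeq2. Fmo2, the main flavin monooxygenase of lung at 1879 CPM in CTRL, was at -0.46 on D7, -1.55 on D21 and -1.32 on D42. Cyp2b10, named after its values were seen, was at -0.63, -1.25 and -0.61 on D7, D14 and D42. Aldh1a1 and Ces1d, described above, were the other two. A list of 15 genes of retinoid handling was chosen after Lrat and Adh7 had been seen in the set. Of its 12 other genes tested, Aldh1a1 alone fell on all 6 days, and the retinol dehydrogenase Rdh10 was between -0.24 and 0.01. The carboxylesterases Ces1e, Ces1f and Ces1g lie side by side on chromosome 8, with 22.6 kb and 26.6 kb from Ces1f to Ces1g and Ces1e. Reads may be shared among these related genes, which was not tested.

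In the libraries with fat markers 9 genes of the set lay above both the other mice of the day and the highest CTRL mouse, 3 of them (Car3, Cyp2e1 and the lipid droplet gene Cidec) in D7 replicate 8 and all 9 in D28 replicate 10. Car3, a carbonic anhydrase abundant in fat and muscle, had a median of 14.7 CPM in CTRL, 6.73 on D7, 1.36 on D14 and 0.203 on D28, but stood at 484 CPM in D7 replicate 8 and 1517 CPM in D28 replicate 10. Cyp2e1 stood at 297 and 627 CPM in the same libraries, against at most 11.3 and 15.2 CPM in the other mice of those days. Cidec stood at 89.4 and 230 CPM, against at most 8.20 and 10.2 CPM. In D28 replicate 10, Adrb3, the beta-3 adrenergic receptor of fat cells, stood at 42.6 CPM against at most 8.86 CPM in the other D28 mice, and Myh7, the slow myosin of heart and muscle, at 66.7 against 26.9 CPM. Ces1f stood at 28.9 against 14.1 CPM, and Cd300lg at 34.1 against 25.1 CPM. These genes were named after their values were seen, and the part of fat and muscle RNA in their levels was not tested. Car3 reached its CTRL range in 37 of 65 BLEO-IPF mice, among them all 12 on D35, where its median was 6.24 CPM. In CTRL, Car3 ran from 1.01 CPM in replicate 2, with 0.155 CPM of Adipoq, to 31.8 CPM in replicate 9, with 3.72 CPM of Adipoq. Median Adipoq was 1.59 CPM in CTRL, 0.736 on D7, 0.168 on D14, 0 on D21, 0.0958 on D28, 0.447 on D35 and 0 on D42. Left out together, the pair of libraries kept 95 of the 100 genes in the set. Abi3bp, Kdr, Scgb1a1, Slc38a4 and Tef left it, and Alas2, Cfd, Hba-a1, Hba-a2 and Hbb-bt entered it.

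Clock genes and transcription factors together numbered 9, and 5 of the genes in that group belong to the circadian clock or its output: Dbp, Tef, Hlf, Per3 and Ciart. In the clock, BMAL1 and CLOCK bind E-box elements and switch on their own repressors, the PER and CRY proteins and the REV-ERB receptors, together with the PAR-bZIP factors Dbp, Tef and Hlf. Dbp had 138, 254 and 358 CPM in CTRL, 26.9, 74.7 and 216 CPM on D7, 17.2, 89.1 and 146 CPM on D14, and 99.6, 125 and 186 CPM on D42. It overlapped CTRL on every day, with 7 of 12 mice in the CTRL range on D35. Hlf had 72.7, 83.0 and 96.6 CPM in CTRL, 28.7, 49.2 and 59.2 CPM on D7, and 21.2, 25.6 and 33.9 CPM on D42, with no BLEO-IPF mouse in the CTRL range. Hlf and Tef act on the same class of D-box sites as Dbp. Tef had 465.9, 527 and 605 CPM in CTRL and 153, 223 and 349 CPM on D14. Ciart had 20.2, 24.8 and 32.9 CPM in CTRL, 8.76, 13.04 and 18.97 CPM on D14, and 8.61, 13.1 and 18.5 CPM on D42. Hlf, Tef, Per3 and Ciart were named after their values were seen. The spans of Dbp and Per3 overlap other genes with 25.8% and 18.9% of their counts.

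A list of 19 clock genes was drawn up once these 5 had been seen. Of its other 14 genes, 5 fell and 2 rose on all 6 days (edgeR), beside 5.31% and 8.33% of all genes. Those that fell were Per1, at -0.51 on D7 and -0.60 on D42, Per2, at -0.48 and -1.52, Cry2, at -0.57 and -0.61, Nr1d2, which encodes REV-ERB beta, at -0.79 and -0.67, and the receptor Rora, at -0.51 and -0.45. Those that rose were Arntl, which encodes BMAL1, at 0.92 on D7 and 1.52 on D42, and Npas2, at 0.94 and 1.51. Clock rose on 5 of 6 days, up to 0.42 on D14, and Nfil3, the repressor that competes with Dbp for its sites, rose on 4 days, up to 2.40 on D14. The hour at which each mouse was taken was not given in the sources used here, so time of day and treatment cannot be told apart.

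**Figure D2:**
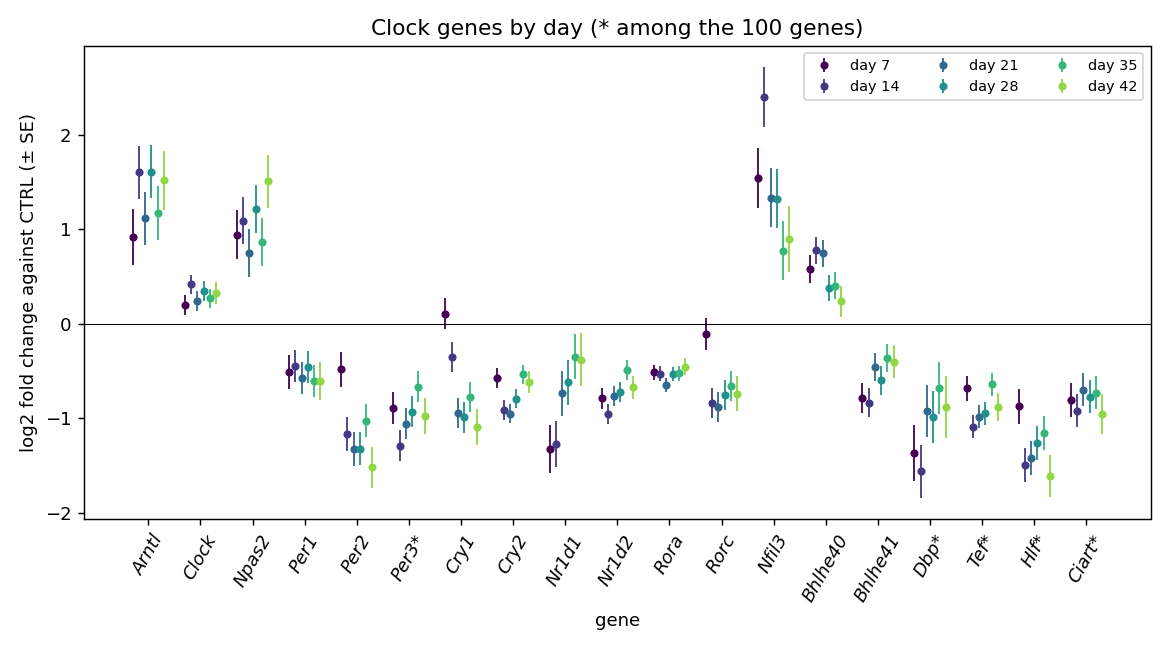
Log2 fold change against CTRL (vertical, ± SE, edgeR) of 19 clock genes on 6 days, with those belonging to the set of 100 starred. Arntl and Npas2 lie above 0 on every day, at 1.52 and 1.51 on D42, while Per1, Cry2, Nr1d2 and Rora lie below 0 throughout.

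The promoters of Ciart, Klf15 and Tef are shown because the core E-box bound by BMAL1 and CLOCK, CACGTG, could be located in each. They were picked for this match, so they stand for neither the set nor its clock genes. Klf15 is not among the clock genes named above. CACGTG reads the same on either strand and stood in 10.2% of the 9365 eligible promoters found. A comparison of motif shares over the whole set is void, since 77 of the 100 genes had a promoter in the table. Each sequence holds the 250 bases before the start from RefSeq on GRCm38.p6, with CACGTG in capitals. Ciart, at chr3:95882229-95882478 on the minus strand, has it at positions -116, -58 and -44. Klf15, a Krüppel-like factor induced by glucocorticoids, at chr6:90462326-90462575 on the plus strand, has it at -228 and -172, with another at -3 that crosses the start and is not shown whole. Tef, at chr15:81802423-81802672 on the plus strand, has it at -127, counted from the 5′ one of the 2 starts listed. In the GENCODE annotation Tef begins at base 81802421, so its printed bases lie within the gene there. A match describes these letters and is not proof of binding.
Ciart: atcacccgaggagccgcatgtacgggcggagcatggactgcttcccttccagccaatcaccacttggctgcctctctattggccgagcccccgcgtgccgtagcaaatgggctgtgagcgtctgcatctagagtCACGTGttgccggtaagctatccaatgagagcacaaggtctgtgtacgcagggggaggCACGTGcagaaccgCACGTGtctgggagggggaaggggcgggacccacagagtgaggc
Klf15: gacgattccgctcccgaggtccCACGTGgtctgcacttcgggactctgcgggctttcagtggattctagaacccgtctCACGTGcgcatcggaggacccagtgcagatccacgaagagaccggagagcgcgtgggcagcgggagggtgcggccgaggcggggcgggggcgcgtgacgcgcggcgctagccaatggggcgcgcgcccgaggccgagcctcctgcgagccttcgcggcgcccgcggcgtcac
Tef: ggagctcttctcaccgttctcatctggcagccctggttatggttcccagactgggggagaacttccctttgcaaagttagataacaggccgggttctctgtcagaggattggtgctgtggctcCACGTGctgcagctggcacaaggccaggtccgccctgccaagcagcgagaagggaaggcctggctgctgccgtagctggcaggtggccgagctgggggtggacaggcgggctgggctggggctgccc

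Hes2, a repressor of the Hairy family, was the lowest of the factors, with 3.82, 6.09 and 8.33 CPM in CTRL and 0, 0.349 and 0.917 CPM on D14, where it came near the limit of counting. Its highest BLEO-IPF mouse, at 3.70 CPM on D42, stayed below the lowest CTRL mouse. Klf15 had 40.97, 63.2 and 73.4 CPM in CTRL, 14.7, 22.4 and 43.6 CPM on D14, and 24.4, 28.9 and 41.4 CPM on D42.

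Genes best known from neurons and genes of membrane transport made up 10 and 12 of the set, at medians of -1.90 and -1.59 on D14 (difference from CTRL, log2). Gria1, a subunit of the AMPA glutamate receptor, had 29.02, 36.3 and 45.7 CPM in CTRL, 10.1, 15.4 and 27.02 CPM on D7, 2.30, 5.40 and 11.3 CPM on D14, and 2.85, 7.60 and 12.6 CPM on D42. No BLEO-IPF mouse reached CTRL, and the mice from D14 on reached at most 18.7 CPM. Gsg1l, an auxiliary protein of the same receptor, had 6.68, 9.70 and 12.9 CPM in CTRL and 0.154, 1.90 and 3.35 CPM on D14. Faim2, an inhibitor of Fas-driven cell death, had 27.6, 31.2 and 39.8 CPM in CTRL and 2.31, 5.79 and 11.2 CPM on D14. Colq, the collagen tail that anchors acetylcholinesterase, had 25.1, 37.7 and 46.3 CPM in CTRL, 0.950, 3.66 and 9.21 CPM on D14, and 5.13, 17.3 and 48.5 CPM on D42. On D42 it was scattered from far below CTRL to above the highest CTRL mouse. Faim2 stayed below CTRL in every BLEO-IPF mouse. Bex2, a small brain-expressed protein, had 22.7, 27.1 and 42.6 CPM in CTRL and 2.12, 4.56 and 9.32 CPM on D14. Tmem132d had 12.0, 15.1 and 18.5 CPM in CTRL and 0.822, 2.89 and 7.27 CPM on D14. Slc5a12, a sodium-coupled lactate carrier, had 4.98, 6.03 and 10.7 CPM in CTRL and 0, 1.49 and 2.98 CPM on D14.

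Of 17 other ion channel genes tested, 1 fell on all 6 days, the potassium channel Kcnq5, at -0.79 on D14, and 0 rose (edgeR, with 0 also at an unadjusted p and by DESeq2). The chloride channel protein Clic5 fell on D7 to D28, at -0.58 on D14, and the sodium channel Scn7a was at -0.99 on D7 and -0.12 on D42, the latter not past the test. Scn3b, a sodium channel beta subunit, rose on D14 (0.44). Gria3, another AMPA receptor subunit named after its values were seen, was at 0.17 on D14, not past the test, and at -0.71 on D42.

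Ptgfr, the receptor of prostaglandin F2 alpha, had 25.7, 31 and 39.6 CPM in CTRL, 1.15, 6.83 and 14.2 CPM on D14, and 8.35, 12.8 and 24.7 CPM on D42. The D42 mice stayed below CTRL. The uncharacterized gene 9330159F19Rik had 6.04, 8.34 and 10.5 CPM in CTRL and 1.35, 1.79 and 3.77 CPM on D14.

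Immune genes numbered 13, and each of them was lowest on D14. They include Cidec, placed there as an alveolar macrophage list gene, which was highest in the libraries with fat markers. Krt79, a keratin expressed in resident alveolar macrophages, topped the set with 13.9, 17.8 and 24.3 CPM in CTRL, 1.34, 4.64 and 9.10 CPM on D7, 0.0769, 1.48 and 5.44 CPM on D14, and 1.48, 3.62 and 8.15 CPM on D42. Only 2 of 65 BLEO-IPF mice, 1 on D28 and 1 on D35, reached the CTRL range. Of 9 other alveolar macrophage genes, 1 fell and 2 rose on all 6 days (edgeR). Fabp1, a fatty acid binder, fell by 3.93 on D14 and by 1.63 on D42, from 3.85 CPM in CTRL, while Atp6v0d2 stood at 1.61 and 1.84 and the lipoprotein receptor Olr1 at 1.32 and 1.70. Chil3, the most abundant gene of the list at 348 CPM in CTRL, rose on 5 days and was at 1.00 on D14, and Plet1 was at 0.83 on D21. The list thus split, with Krt79 and Fabp1 low beside others that rose. Fabp1 and Olr1 were named after their values were seen.

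The natural killer cell receptor Ncr1 and the killing proteins Gzma and Prf1 belonged to the set, as did the receptor Klrb1c. Gzma had 13.2, 17.5 and 25.5 CPM in CTRL and 0.462, 7.68 and 10.3 CPM on D14. Ncr1 had 4.12, 5.42 and 6.96 CPM in CTRL and 0.0769, 1.84 and 3.07 CPM on D14. Prf1 overlapped CTRL on every day, from 1 mouse each on D14 and D21 to 4 mice on D35. Of the 4 other genes of the list, 2 fell on all 6 days (edgeR): the receptors Klra8, at -1.996 on D14, and Klre1, at -1.44. Nkg7, a granule protein, fell on D7 to D28, at -0.98 on D14, and Eomes, the lineage factor, on 5 days, at -1.16 on D14. Adgre4, an adhesion receptor of circulating monocytes, had 8.44, 12.2 and 17.2 CPM in CTRL and 0.693, 5.11 and 9.31 CPM on D14, and 15 BLEO-IPF mice reached its CTRL range. Of 5 other non-classical monocyte genes, 0 fell and 0 rose on all 6 days by edgeR, by DESeq2 and with an unadjusted p under 0.05. Among them Ace was at 0.07, Nr4a1 at -0.35 and Eno3 at -0.33 on D14, none past the test. General leukocyte genes did not share the direction, since 0 of 13 fell and 3 rose on all 6 days (edgeR, and 0 fell with an unadjusted p and with DESeq2). Ptprc, the pan-leukocyte phosphatase CD45, was at 0.01 on D14, not past the test, the growth factor receptor Csf1r was at 0.69 on D14, and the lysozyme Lyz2 at 0.66 on D42. Ackr4, a scavenger of the chemokines that guide cells to lymph nodes, had 9.66, 12.6 and 17.5 CPM in CTRL and 0.285, 1.69 and 4.25 CPM on D14, and its span overlaps opposite-strand genes with 617% of its counts.

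Kdr, the main receptor for vascular endothelial growth factor, had 569, 608 and 716 CPM in CTRL, 160, 333 and 500 CPM on D14, and 277, 402 and 637 CPM on D42, where 1 mouse reached the CTRL range. Ednrb, the endothelin receptor of alveolar capillary aerocytes, had 125, 146 and 185 CPM in CTRL, 34.9, 63.5 and 85.0 CPM on D14, and 41.1, 65.9 and 133 CPM on D42. Of 15 other endothelial genes, 5 fell and 0 rose on all 6 days (edgeR, with 0 rising also at an unadjusted p and by DESeq2). They were Tek, the angiopoietin receptor, at -0.87 on D14, and Flt1, Tie1, Rasip1 and Robo4, at -0.43, -0.64, -0.34 and -0.48. The junction proteins Cdh5 and Pecam1 were at -0.47 and -0.49 on D14 and at -0.18 each on D42, the D42 values not past the test, and Calcrl was at -0.38 on D14. Of 7 other aerocyte genes, 1 fell on all 6 days, namely Fibin, at -1.30 on D14 and -1.34 on D42. Kitl and Tbx2 fell on 5 days, at -0.57 and -0.22 on D14. Prx fell on 2 days and was at -0.17 on D14, not past the test. For general capillary, type 1 cell and type 2 cell genes, 0 of 7, 0 of 14 and 0 of 12 fell on all 6 days (edgeR and DESeq2), and 2, 1 and 0 did with an unadjusted p under 0.05. Among the 3 most abundant of each list, Plvap (general capillary) and Sec14l3 (type 1) fell on 5 days, at -1.01 on D35 and -1.02 on D14. Cd93 fell on 1 day, Sema3c on 2, Emp2 on 3 and Ager on 0. Sftpc, Sftpa1 and Sftpb of type 2 cells fell on 1 day each.

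**Figure D3:**
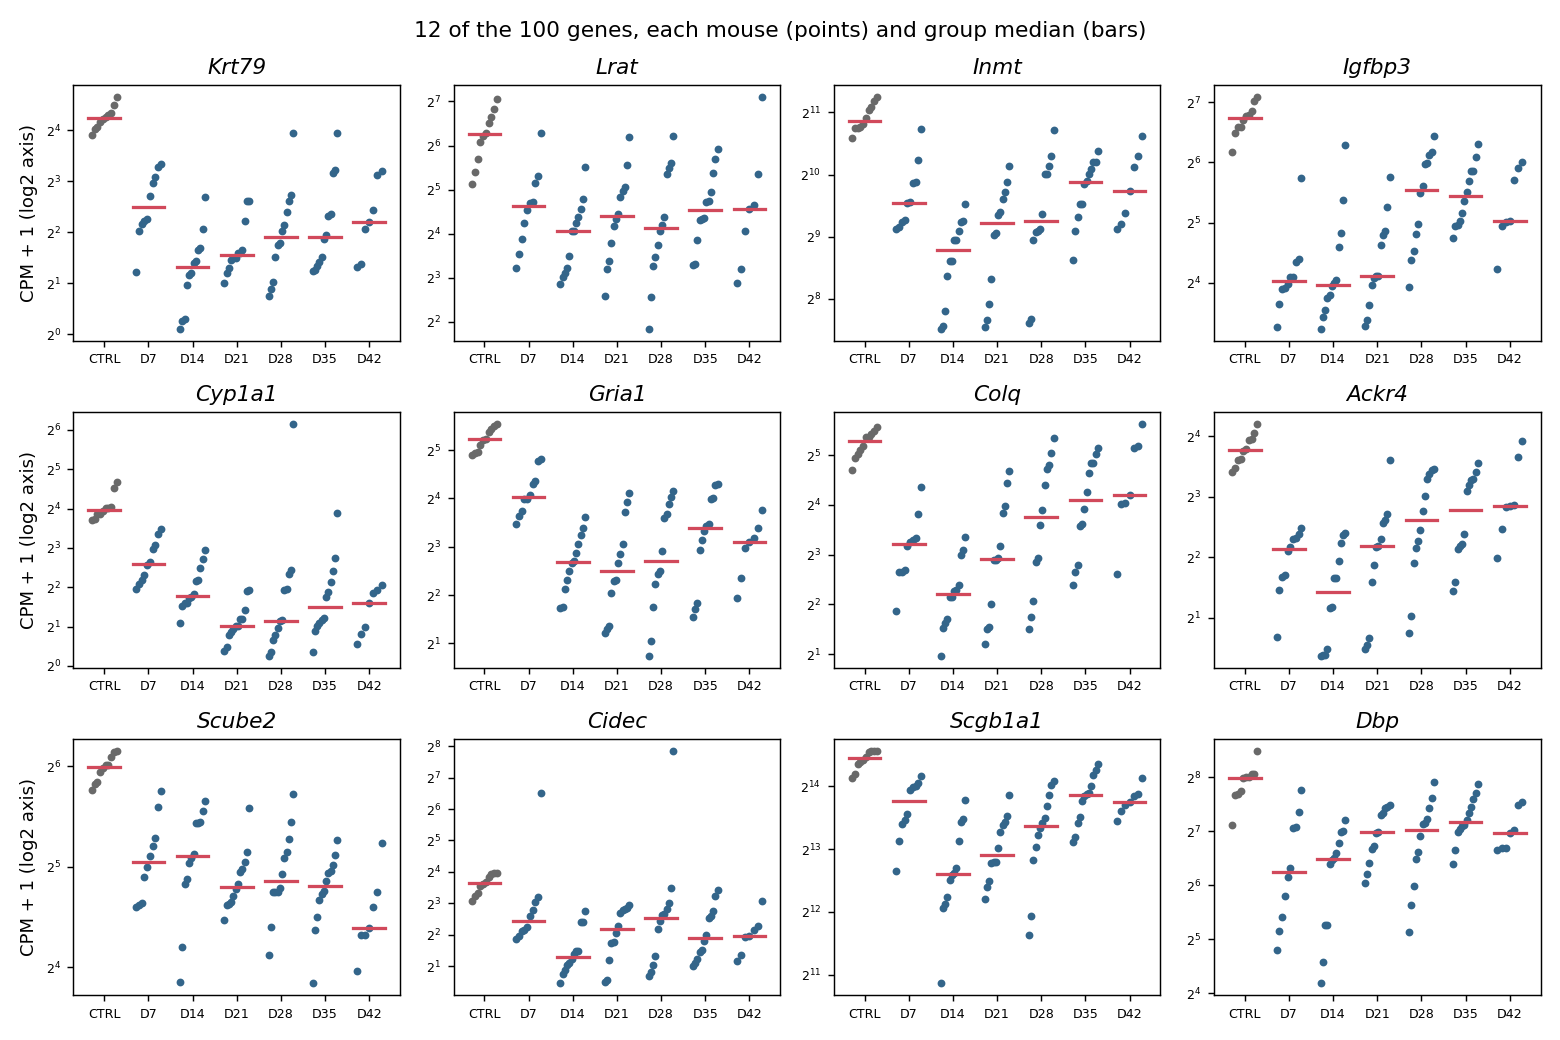
CPM + 1 on a log2 axis in each mouse (points) with the group median (bars) for 12 of the 100 genes, CTRL in gray and BLEO-IPF days in blue. Krt79 has a median of 1.48 CPM on D14, Colq spreads up to 48.5 CPM on D42, Scube2 is lowest on D42 at 19.9 CPM, and Cidec has single high mice of 89.4 and 230 CPM.

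The differences between BLEO days, and the calls made on them, are given as a description only. The day means that chose the genes also make up these contrasts, so the calls are no independent test. From D7 to D14 the fitted log2 fold change (edgeR) was negative for 96 of the 100 genes, with a median of -0.62. From D14 to D28 it was positive for 97, with a median of 0.51, and from D14 to D42 for 92, with a median of 0.55. From D28 to D42 the median was 0.10. Over all 16221 genes fitted the medians lay between -0.01 and 0.00. In the same fit (adjusted p under 0.05), 45 genes of the set were called lower from D7 to D14, beside 7.55% of all genes called lower and 9.48% called higher, and 41 were called without D7 replicate 8. From D14 to D28, 44 were called higher, beside 11.4% higher and 13.2% lower over all genes. That count was 22 without D28 replicate 10, 29 with no filter on low counts and 9 when only the groups compared were fitted. From D14 to D42, 44 were called higher and 1 lower, beside 15.2% and 18.8%, and 43 and 1 without both libraries with fat markers. From D28 to D42, 2 were called lower, beside 0.82% lower and 0.0493% higher. They were Car3 and Cyp2e1, and neither was called without D28 replicate 10. Since the rule used these day means, nothing is read from the counts or from their distance to the shares of all genes.

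Single genes differed in their course. Colq had the largest log2 fold change from D14 to D42, at 2.52 ± 0.45 (SE), followed by Hes2 at 1.93 ± 0.49, Ackr4 at 1.92 ± 0.43, Aox3 at 1.44 ± 0.25 and Krt79 at 1.30 ± 0.46. From D7 to D14 the values were -1.58 ± 0.42 for Krt79, -1.36 ± 0.47 for Hes2 and -0.87 ± 0.23 for Aox3. These genes thus had their lowest levels on D14. Inmt had -0.97 ± 0.27 and then 1.10 ± 0.29. The airway gene Cbr2 stood at 1.27 ± 0.29 from D14 to D42, and Scgb1a1 at 0.96 ± 0.24.

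Other genes took other courses. Scube2 had -0.61 ± 0.18 from D14 to D42. Gria1 had -1.51 ± 0.36 from D7 to D14 and 0.30 ± 0.41 from D14 to D42, so its late difference was smaller than its error. Igfbp3 had 0.30 ± 0.31 from D7 to D14 and 0.99 ± 0.29 from D14 to D28. Among the clock output genes, Hlf had -0.62 ± 0.18 and Tef -0.40 ± 0.12 from D7 to D14. From D14 to D42 Hlf had -0.11 ± 0.20 and Tef 0.21 ± 0.14.

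**Figure D4:**
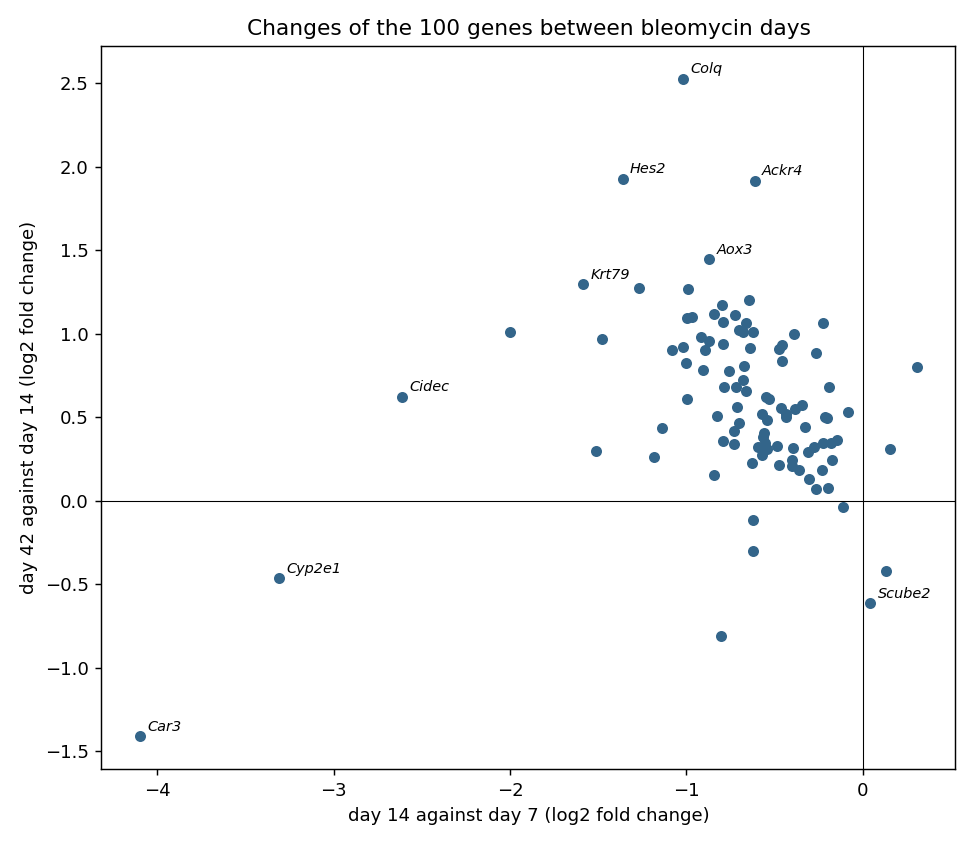
Log2 fold change (edgeR) of the 100 genes (points) from D7 to D14 (horizontal) and from D14 to D42 (vertical), as a description. Colq is highest at 2.52, Scube2 lies below 0 on the vertical axis at -0.61, and Car3, Cyp2e1 and Cidec lie far left, where D7 replicate 8 carried 484, 297 and 89.4 CPM.

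By role, the median log2 fold changes from D7 to D14 and from D14 to D42 were -0.85 and 0.90 for the 15 enzymes, -0.40 and 0.69 for the 6 cytoskeleton genes, and -0.56 and 0.48 for the 3 receptors. They were -0.74 and 0.84 for the 10 genes best known from neurons, -0.57 and 0.62 for the 13 immune genes, and -0.45 and 0.53 for the 14 matrix and secreted genes. The 9 clock genes and transcription factors stood at -0.40 and 0.32, and the 12 channel, pump and carrier genes at -0.65 and 0.34. The 6 endothelial and airway genes stood at -0.47 and 0.37, the 4 alveolar fibroblast genes at -0.51 and 0.53, and the remaining 8 at -0.78 and 0.53. Differences between roles were not tested.

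The mice of a day differed in how many of the 100 genes lay in or above the CTRL range, taken as at or above the lowest CTRL mouse. The lowest, median and highest mouse had 3, 5.5 and 17 such genes on D7, 0, 1 and 6 on D14, 0, 1.5 and 14 on D21, 0, 4.5 and 41 on D28, 1, 6.5 and 29 on D35, and 0, 5 and 31 on D42. In all, 469 of 6500 gene values of BLEO-IPF mice reached the range, and 17 lay above the highest CTRL mouse. D28 replicate 11, which held 419 CPM of Myh6 against at most 107 CPM in CTRL, led with 41 genes. It was followed by D28 replicate 10 with 32, which holds fat and muscle markers, D42 replicate 4 with 31 and D35 replicate 4 with 29. The summed fibrotic matrix genes of these mice were 4452, 4234, 3735 and 5307 CPM. They were the second lowest and the lowest of 12 on D28, the lowest of 7 on D42 and number 5 from the lowest of 12 on D35. No test was made of this relation.

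**Figure D5:**
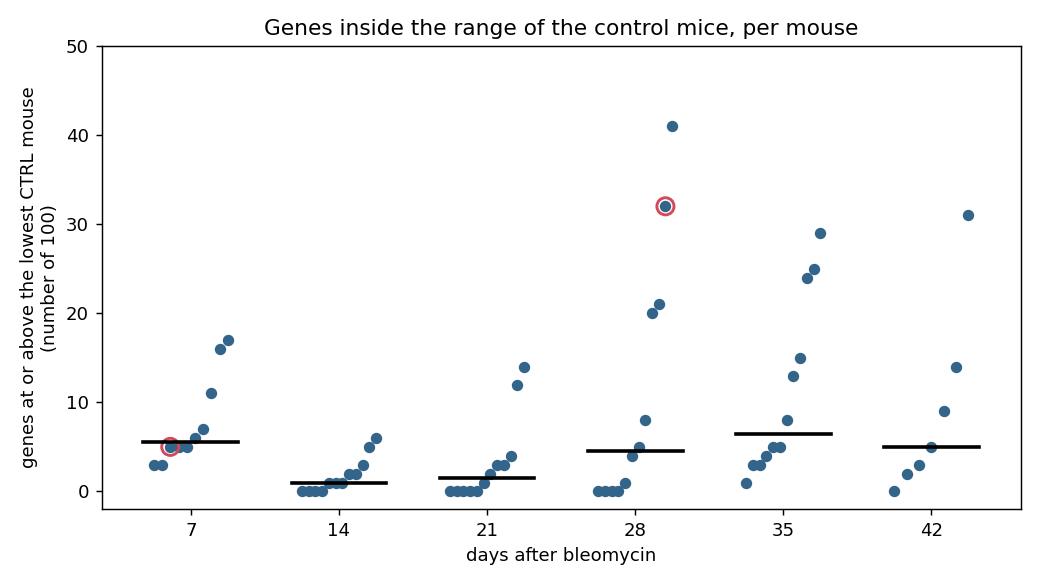
For each BLEO-IPF mouse (points, group median as bar), the number of the 100 genes at or above the lowest CTRL mouse, by day. Day 14 holds the mice with fewest (0 to 6), day 28 the widest spread (0 to 41), and the circled points are the libraries with fat markers, at 5 and 32.

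In traits that the rule did not use, the median exon length was 3.92 kb against 4.67 kb over eligible genes, and the median span 28.1 kb against 26.1 kb. Median exon length of eligible genes rose with CTRL level, from 3.63 kb in the lowest quartile to 5.85 kb in the highest. The set had a lower median CTRL level than eligible genes, so the exon lengths are not compared at equal level. The genes lay on all autosomes and the X chromosome, with most on chromosome 6, where 12 lay against 4.98% of eligible genes. Neighbors within 1 Mb included Krt79 and Igfbp6, Slc7a10 and Chst8, Inmt and Itprid1, the interferon-inducible pair Ifi208 and Ifi213, the lipid transporters Abca6 and Abca8a, and the Ces1 cluster. Paralogs of these last families may share reads. Solute carriers numbered 6 of 210 eligible and P450 genes 3 of 25. For 13 genes, opposite-strand genes overlapping the span held over 10% of the gene's counts, and for 2, Esr2 and Per3, same-strand genes did.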

How the data were processed

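RNA from 75 mouse lungs was measured by poly(A) RNA sequencing (directional library kit, single-end reads of 75 bases). The authors deposited counts per gene, not normalized, made with STAR 2.7.0f per the labels. Genes carry Ensembl IDs, and all 55536 were found in the GENCODE M21 annotation (GRCm38) used here for symbols, types and lengths. The counting program and its strand setting are not given in the sources used here.

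From the counts, CPM of total counts were computed for the rule and for levels. Tests used edgeR 4.0.16 in R 4.3.3 (TMM scaling, filterByExpr, quasi-likelihood test, 1 fit of 7 group means over all mice, Benjamini-Hochberg adjustment, threshold 0.05), with DESeq2 1.42.0 and other scalings, filters and a replicate block as alternatives. The fit and the rule were tested on simulated data. Standard errors are the absolute log2 fold change over the square root of F. Depth was 9240290 to 14665200 counts, which limits the precision of genes near the minimum of 5 CPM. The members, the roles and the lists were chosen with earlier results of these data known. Genes were named by rule: the 15 lowest values, the 10 highest per kb, the first 3 of each list, ranks 99 to 102, the 5 largest changes each way from D14 to D42, and the 3 most abundant others of each list. Genes outside it were chosen after their values were seen. Each mouse is taken as a separate animal. The values of some genes of the set are not reported here. Contrasts between BLEO days were planned as tests and are given as descriptions, because the day means entered the rule.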

Additional observations from a re-analysis of the deposited data

Results flagged for a closer look

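Within CTRL, D7 and D42, 6 sets of values of named genes held a mouse far from the others by Dixon's ratio, the gap to the nearest mouse over the whole range, on log2(CPM + 1). Chance flags about 1 in 20 such groups, and 111 groups were examined. On D7, Bex2 was at 30.3 CPM in replicate 3 against 6.21 to 12.8 CPM in the others (ratio 0.556), Igfbp3 at 52.5 CPM in replicate 5 against 8.65 to 20.1 CPM (0.544), and Cidec at 89.4 CPM in replicate 8, the library with fat markers, against 2.67 to 8.20 CPM (0.713). On D42, Cbr2 was at 1426 CPM in replicate 7 against 2152 to 2812 CPM (0.606), Igfbp6 at 40.4 CPM in the same mouse against 92.4 to 153 CPM (0.62), and Ogn at 358 CPM in replicate 4 against 200 to 252 CPM (0.602).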

How the results depend on the processing

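Of the 100 genes, 99 were still chosen with TMM factors, 98 with DESeq2 size factors, 89 and 86 with a CTRL minimum of 1 and 10 CPM, 82 with group medians, 92 with a pseudocount of 0.1 CPM and 96 with all biotypes. Leaving out each mouse in turn kept 86 to 100. Counts between days are descriptions, since the day means chose the genes. The 44 genes called higher from D14 to D28 became 29 with no filter, 9 when only the groups compared were fitted, 22 without D28 replicate 10 21 without both libraries with fat markers, and 43 without D7 replicate 8 alone. These libraries were left out after seeing the data. The 45 called lower from D7 to D14 became 29 when at least 10 counts were required in every mouse, a filter that tests fewer genes. The 2 called lower from D28 to D42 became 3 without D7 replicate 8 and 0 with DESeq2, with 10 counts in every mouse, with only the groups compared, with the replicate block, and without D28 replicate 10, alone or with D7 replicate 8. Of 254 other list genes tested, 31 fell on all 6 days, and this count was 19 with no filter, 59 with only the groups compared and 15 with a log2 fold change of at least 0.5. Apart from the fewer genes or mice named here, the cause was not tested.

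Replicate numbers do not pair the mice: over 204 pairs of mice of different groups with the same number, the correlation of deviations from the group mean ran from -0.54 to 0.57, with a mean of 0.0058. With the replicate block, 50 genes were called lower from D7 to D14, 32 higher from D14 to D28 and 54 higher from D14 to D42. Genes near 1 CPM in BLEO-IPF mice, such as Hes2 and Krt79 on D14, rest on few counts.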
